A study of Mus musculus with 24 samples.

Results

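Haem oxygenase 1, encoded by Hmox1, and 9 genes of the antioxidant pathway around it were followed in mouse stroma cells of oral tumour xenografts. The members were Hmox1, Nqo1, Gclc, Gclm, Txnrd1, Srxn1, Slc7a11 and Gsr, which are known Nrf2 targets, Nfe2l2, which encodes Nrf2 itself, and Bach1, which encodes a repressor. Each member was taken from the probe sets that name it and no other gene, which gave 17 of the 28898 single-gene probe sets on the array and 10 of the 17097 genes these cover. The question was whether Hmox1 moved alone or together with the other Nrf2 targets across the groups.

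Nrf2 is a transcription factor that is held low by Keap1 in resting cells and accumulates under oxidative or electrophilic stress. It pairs with small Maf proteins on antioxidant response elements, which lie near genes for glutathione and thioredoxin enzymes. Bach1 occupies the same elements at Hmox1 and is released from them by haem, so Hmox1 also answers to haem and to further stress pathways. The enzyme splits haem into biliverdin, carbon monoxide and iron, and macrophages, endothelial cells and glia are all known to make it.

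The arrays held total RNA of the neural fraction of the tumour stroma from NSG mice, an immunodeficient strain that lacks T, B and NK cells but keeps myeloid cells. All mice carried orthotopic tumours of SCC25, a human oral carcinoma line, so every group had a human tumour in a mouse host. The tumour cells carried shEGR2_40.9 or shEGR2_38.9, both against EGR2, or shGAL, against the neuropeptide gene GAL, or PLKO, named as the hairpin vector, which serves as the control. The mice were fed a diet rich in palmitic acid (PA-rich) or a control diet. The 4 hairpins and 2 diets made 8 groups of 3 arrays, which the series calls technical replicates, and shGAL was represented by 1 hairpin alone. Nothing says that the 3 arrays came from separate animals, so p-values measure only the spread between these arrays, which may be technical. The silenced genes are those of the human tumour cells, while the probe sets are designed for mouse, so silencing was not checked here. The mouse Egr2 probe set was lower on the control diet with EGR2 hairpins (-0.29, adjusted p = 0.0266 in limma) and shGAL (-0.78, 3.59e-05). On the PA-rich diet its change was -0.05 (0.906) with EGR2 hairpins and -0.75 (5.41e-05) with shGAL. Whether human RNA bound the mouse probe sets was not tested.

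Values were log2 levels after RMA, and levels of different genes are not set against each other. A gene is called changed where limma's adjusted p over 11844 kept genes was below 0.05. Statements that arrays do not overlap only describe the few arrays compared. The share of all genes without overlap is not given, so they carry no weight beside the calls. Array medians ran from 6.71 to 6.81. Replicate 3 of the shEGR2_38.9 control group stood apart: its Gapdh 3′ probe set exceeded the 5′ one by 0.76 log2 units, against -0.12 to 0.08 on the others, and its mean correlation with its own group was 0.978, against 0.986 to 0.996. Member calls that are lost without this array are stated with the value without it. Values of genes outside the members are given with it, and only some list counts are also given without it. Of the defining Schwann and glial markers, 6 of 11 were above the dim level, Sox10 among them, while S100b and Foxd3 were below it. Of 11 neuronal markers 5 were above it, and Uchl1, Snap25, Nefl, Nefm, Elavl4 and Syt1 were below it. All 15 endothelial markers were above it, as were all 14 keratinocyte markers with a single-gene probe set. The mean level of the keratinocyte list ran from 10.78 to 11.34 over the groups. The fraction was thus not made up of neural cells alone, and the origin of the keratinocyte signal, host or tumour, was not tested. In bulk samples such as these, fewer cells of a type and less RNA per cell cannot be told apart.

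RefSeq promoters on GRCm38.p6, from 250 bases before to 50 bases after the transcript start, were given for 7 of the 10 members. Those of Srxn1 and Txnrd1, which often moved with Hmox1, and of Gclm and Nqo1, which did not, are shown 5′ to 3′ on the gene's strand. Txnrd1 has several promoters, of which only the one with a match is shown. Capitals mark the antioxidant response element core TGACNNNGC and the AP-1 and Maf core TGAGTCA, searched on both strands with overlaps allowed; the second motif was added after the data were seen.
Srxn1, chr2:152105274-152105573, plus strand: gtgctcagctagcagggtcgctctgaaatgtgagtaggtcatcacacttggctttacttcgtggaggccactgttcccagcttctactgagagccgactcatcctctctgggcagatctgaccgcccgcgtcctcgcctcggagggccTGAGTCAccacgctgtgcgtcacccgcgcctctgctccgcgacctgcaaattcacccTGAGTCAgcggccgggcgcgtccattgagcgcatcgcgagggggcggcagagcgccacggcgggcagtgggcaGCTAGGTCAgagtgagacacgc
Txnrd1, chr10:82858956-82859255, plus strand: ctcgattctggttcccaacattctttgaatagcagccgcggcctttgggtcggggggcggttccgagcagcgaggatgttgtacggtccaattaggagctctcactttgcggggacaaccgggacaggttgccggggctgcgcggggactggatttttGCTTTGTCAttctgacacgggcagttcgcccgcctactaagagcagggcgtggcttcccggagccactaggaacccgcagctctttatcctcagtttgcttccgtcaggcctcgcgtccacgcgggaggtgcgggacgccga
Gclm, chr3:122245307-122245606, plus strand: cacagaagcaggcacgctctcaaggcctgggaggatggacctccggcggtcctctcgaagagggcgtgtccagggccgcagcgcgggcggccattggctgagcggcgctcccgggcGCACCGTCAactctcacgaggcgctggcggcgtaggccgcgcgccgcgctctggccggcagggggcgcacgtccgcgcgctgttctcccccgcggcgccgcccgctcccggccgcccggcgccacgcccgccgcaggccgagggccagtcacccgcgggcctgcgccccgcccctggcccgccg
Nqo1, chr8:107403156-107403455, minus strand: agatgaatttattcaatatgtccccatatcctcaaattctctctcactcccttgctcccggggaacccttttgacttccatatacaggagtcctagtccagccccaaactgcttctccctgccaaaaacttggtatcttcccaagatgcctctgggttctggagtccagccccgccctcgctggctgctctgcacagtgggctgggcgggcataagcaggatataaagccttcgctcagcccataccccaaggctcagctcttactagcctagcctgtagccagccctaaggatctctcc
The element core was found in 4 of the 9 member promoters, against 12.4% of all 32851 promoters of this length. The Txnrd1 promoters that begin at 82833701 and 82860091 are among the 9 and hold neither motif. In Srxn1 it began at position 29 after the start, in this Txnrd1 promoter at -92 and in Gclm at -134, each on the opposite strand, and in Nfe2l2 at -240 on the gene's strand. The Srxn1 promoter also held TGAGTCA at -102 and -45, a motif found in 5.2% of promoters. The capitals show that Gclm, which was called in the direction of Hmox1 in 0 of the 10 comparisons of the design (in 4 against it), holds a match, while the Nqo1 window holds none of these letters. A match is a description of letters and says nothing of binding in these cells. Hmox1, Gclc and Gsr are named only.

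Hmox1 was the member that varied most. It has 1 probe set, 1448239_PM_at, whose group means spanned 2.17 log2 units, at least as wide as all but 0.659% of the 11844 kept genes. With shEGR2_40.9, it read 11.12, 11.17 and 11.26 on the PA-rich diet, against 11.52, 11.48 and 11.48 on the control diet. With shEGR2_38.9, it read 9.29, 9.49 and 9.18 on the PA-rich diet, against 10.99, 10.84 and 10.80 on the control diet. With both EGR2 hairpins every PA-rich array lay below every control array, but the gap was much wider with shEGR2_38.9. With shGAL, Hmox1 read 10.44, 10.31 and 10.25 on the PA-rich diet, against 11.22, 11.20 and 11.05 on the control diet. With PLKO, it read 9.65, 9.94 and 9.67 on the PA-rich diet, against 9.72, 9.77 and 9.61 on the control diet. The shGAL arrays were again lower on the PA-rich diet without overlap, while the PLKO arrays of both diets overlapped.

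In order of its mean, Hmox1 was highest with shEGR2_40.9 on the control diet (11.49 ± 0.02, SD, n = 3), followed by shEGR2_40.9 on the PA-rich diet (11.18 ± 0.07) and shGAL on the control diet (11.16 ± 0.09), whose arrays overlapped. The shEGR2_38.9 control group (10.88 ± 0.10) and the shGAL PA-rich group (10.33 ± 0.10) came next, each apart from its neighbours. The lowest levels were those of PLKO on the PA-rich diet (9.75 ± 0.16) and the control diet (9.70 ± 0.08), which overlapped, and of shEGR2_38.9 on the PA-rich diet (9.32 ± 0.16). PLKO tumours thus lay near the bottom of the range on both diets.

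**Figure D1:**
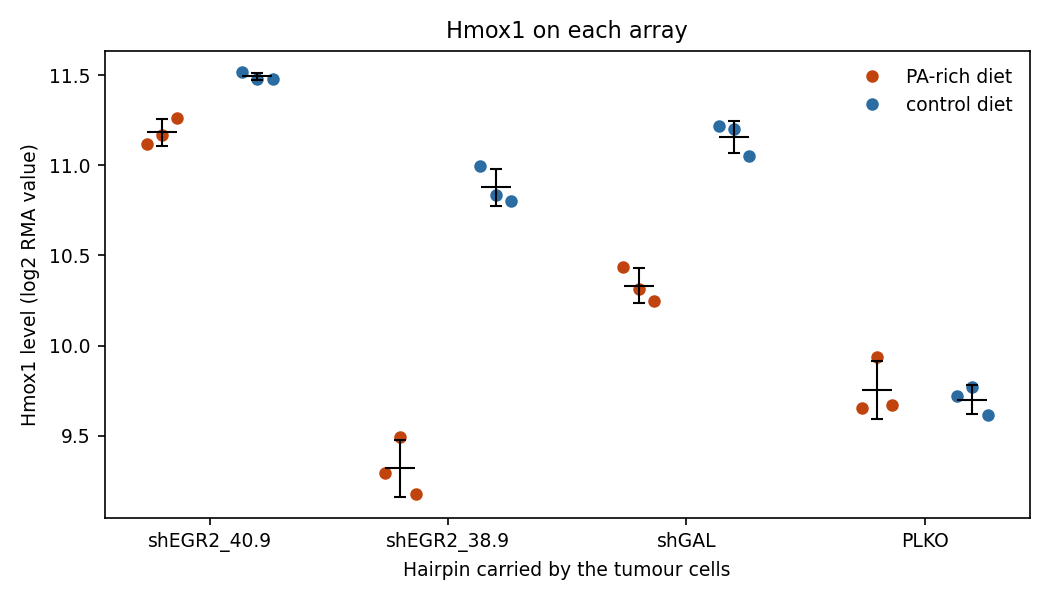
Hmox1 level (log2 RMA value) on each of the 24 arrays by hairpin, with the PA-rich diet left of the control diet; points are arrays, and bars give the mean ± SD of 3 arrays. With 3 of the 4 hairpins every PA-rich array lies below every control array, from 9.18 to 9.49 against 10.80 to 10.99 with shEGR2_38.9, while the PLKO arrays overlap.

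Under the control diet with EGR2 hairpins, Hmox1 rose together with Gclc, Txnrd1 and Srxn1, and Gclm fell. Hmox1 was 2.80-fold higher than with PLKO, a log2 change of 1.48 ± 0.08 (SE, adjusted p = 2.65e-11 in limma), and all 6 arrays of the EGR2 hairpins lay above all 3 PLKO arrays. Gclc, the catalytic subunit of the enzyme that limits glutathione synthesis, was higher by 0.47 ± 0.06 (adjusted p = 3.90e-06), again without overlap. Txnrd1, the cytosolic thioredoxin reductase, was higher by 0.34 ± 0.07 (adjusted p = 0.000961), and Srxn1, which repairs oxidised peroxiredoxins, by 0.38 ± 0.11 (adjusted p = 0.0115). The arrays of these genes overlapped those of PLKO. Gclm, the regulatory subunit of the same glutathione enzyme as Gclc, was lower, with a log2 change of -0.23 ± 0.07 (adjusted p = 0.0245), so the subunits of this enzyme moved in opposite directions. In all 5 of the 9 members tested were called, against 25.2% of all genes in this comparison. Without the shEGR2_38.9 array that stood apart the same 5 members were called, with Hmox1 at 1.50, Srxn1 at 0.48 and Txnrd1 at 0.40. The calls of Srxn1 (adjusted p = 0.0555) and Gclm (adjusted p = 0.152) were lost without PLKO control replicate 3, and that of Gclm also without PLKO control replicate 2 (0.0669) or shEGR2_40.9 control replicate 3 (0.0503). With the scan batch as a block Gsr, at -0.22, joined the calls (adjusted p = 0.0433), and also with the replicate number as a block (0.0407).

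The EGR2 hairpins differed in how far Hmox1, Srxn1 and Txnrd1 rose. With shEGR2_40.9 alone on the control diet 4 of 9 members rose, with 12.1% of all genes called: Hmox1 by 1.79 ± 0.09, Srxn1 by 0.77 ± 0.12, Gclc by 0.56 ± 0.07 and Txnrd1 by 0.53 ± 0.08 (adjusted p at most 0.000152). With shEGR2_38.9 alone Hmox1 rose by 1.18 ± 0.09 (adjusted p = 2.09e-09) and Gclc by 0.38 ± 0.07 (adjusted p = 0.000225), while Gclm and Nfe2l2 both had a log2 change of -0.28 (adjusted p = 0.0141 and 0.0190), with 30.4% of all genes called. Srxn1 differed from PLKO by -0.01 ± 0.12 and Txnrd1 by 0.16 ± 0.08 with this hairpin, neither of them called. Both genes were low on the array that stood apart: Srxn1 read 9.12, 8.95 and 8.41 and Txnrd1 11.55, 11.58 and 11.25 on the shEGR2_38.9 control arrays, with the lowest value on replicate 3 each time. Without it Txnrd1 rose by 0.26 (adjusted p = 0.00943), the change of Srxn1 was 0.19 (adjusted p = 0.141), and Gclm (0.0774) and Nfe2l2 (0.0506) missed the threshold. Both were also lost without PLKO control replicate 3 (0.0768 and 0.0919), and Nfe2l2 without PLKO control replicate 2 (0.0559) and with the scan batch as a block (0.0688). In the scan batch that each hairpin shared with PLKO, where each side had 1 array, Hmox1 was higher by 1.80 with shEGR2_40.9 and by 1.07 with shEGR2_38.9.

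Set against each other on the control diet, in a comparison added after the values were seen, the hairpins differed in 3 of 9 members, with 11.9% of all genes called. The change with shEGR2_38.9 minus that with shEGR2_40.9 was -0.79 ± 0.12 for Srxn1 (adjusted p = 0.000147), -0.61 ± 0.09 for Hmox1 (adjusted p = 6.05e-05) and -0.37 ± 0.08 for Txnrd1 (adjusted p = 0.00370). The arrays of these genes did not overlap, and without the array that stood apart the differences were -0.58, -0.58 and -0.27, all of them called. Fitted on these 6 arrays alone, Txnrd1 (adjusted p = 0.176) and Srxn1 (0.0522) lost their calls. Gclc, at -0.18 ± 0.07, was not called (adjusted p = 0.0927).

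Gclc, like Hmox1, read lower on the PA-rich diet with 3 of the 4 hairpins, at a smaller scale. With shEGR2_40.9, Gclc read 9.02, 8.96 and 8.99 on the PA-rich diet, against 9.19, 9.21 and 9.20 on the control diet. With shEGR2_38.9, it read 8.74, 8.82 and 8.72 on the PA-rich diet, against 8.99, 9.01 and 9.06 on the control diet. In these hairpins the PA-rich arrays lay below the control arrays without overlap. With shGAL, Gclc read 8.73, 8.55 and 8.75 on the PA-rich diet, against 9.10, 9.08 and 8.96 on the control diet. With PLKO, it read 8.83, 8.77 and 8.79 on the PA-rich diet, against 8.67, 8.49 and 8.75 on the control diet. The PLKO arrays ran the other way, with every PA-rich array above every control array, though this difference of 0.16 ± 0.07 was not called (adjusted p = 0.385).

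With shGAL on the control diet the same members rose as with the EGR2 hairpins, and Nfe2l2 fell. Hmox1 was 2.74-fold higher than with PLKO (log2 change 1.46 ± 0.09, adjusted p = 3.92e-10 in limma), Srxn1 was higher by 0.51 ± 0.12 (adjusted p = 0.00626), Txnrd1 by 0.45 ± 0.08 (adjusted p = 0.000644) and Gclc by 0.41 ± 0.07 (adjusted p = 0.000328). None of these 4 genes overlapped between shGAL and PLKO. Nfe2l2, the gene of Nrf2 itself, was lower without overlap, with a log2 change of -0.51 ± 0.09 (adjusted p = 0.000310). Its arrays read 9.04, 8.96 and 9.34 with shGAL, against 9.51, 9.65 and 9.72 with PLKO. The transcript of the factor was thus lower in a group where 4 of its known targets were higher. Called members made up 5 of 9, with 17% of all genes called, and Gclm, at -0.22 (adjusted p = 0.0814), was called with the scan batch as a block (-0.28, adjusted p = 0.0330) and without shGAL control replicate 1 (-0.28, 0.0482) or shEGR2_38.9 control replicate 1 (0.0471) or 3 (0.0413). In the shared scan batch, with 1 array on each side, Hmox1 was higher by 1.44, Srxn1 by 0.68, Txnrd1 by 0.46 and Gclc by 0.21.

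The increases in Srxn1 did not depend on the choice of probe set. Its 4 single-gene probe sets were tested across all probe sets: each was higher with shGAL than with PLKO on the control diet, by 0.41 to 0.57, and on the PA-rich diet, by 0.34 to 0.64 (adjusted p at most 0.00910 and 0.0257). Under the control diet with EGR2 hairpins the 4 probe sets were higher by 0.31 to 0.43 (adjusted p at most 0.0157). On the brightest of them, 1419942_PM_at, Srxn1 read 9.24, 9.34 and 9.47 with shGAL on the control diet, against 8.85, 8.88 and 8.79 with PLKO on that diet. The shGAL arrays lay wholly above the PLKO ones.

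**Figure D2:**
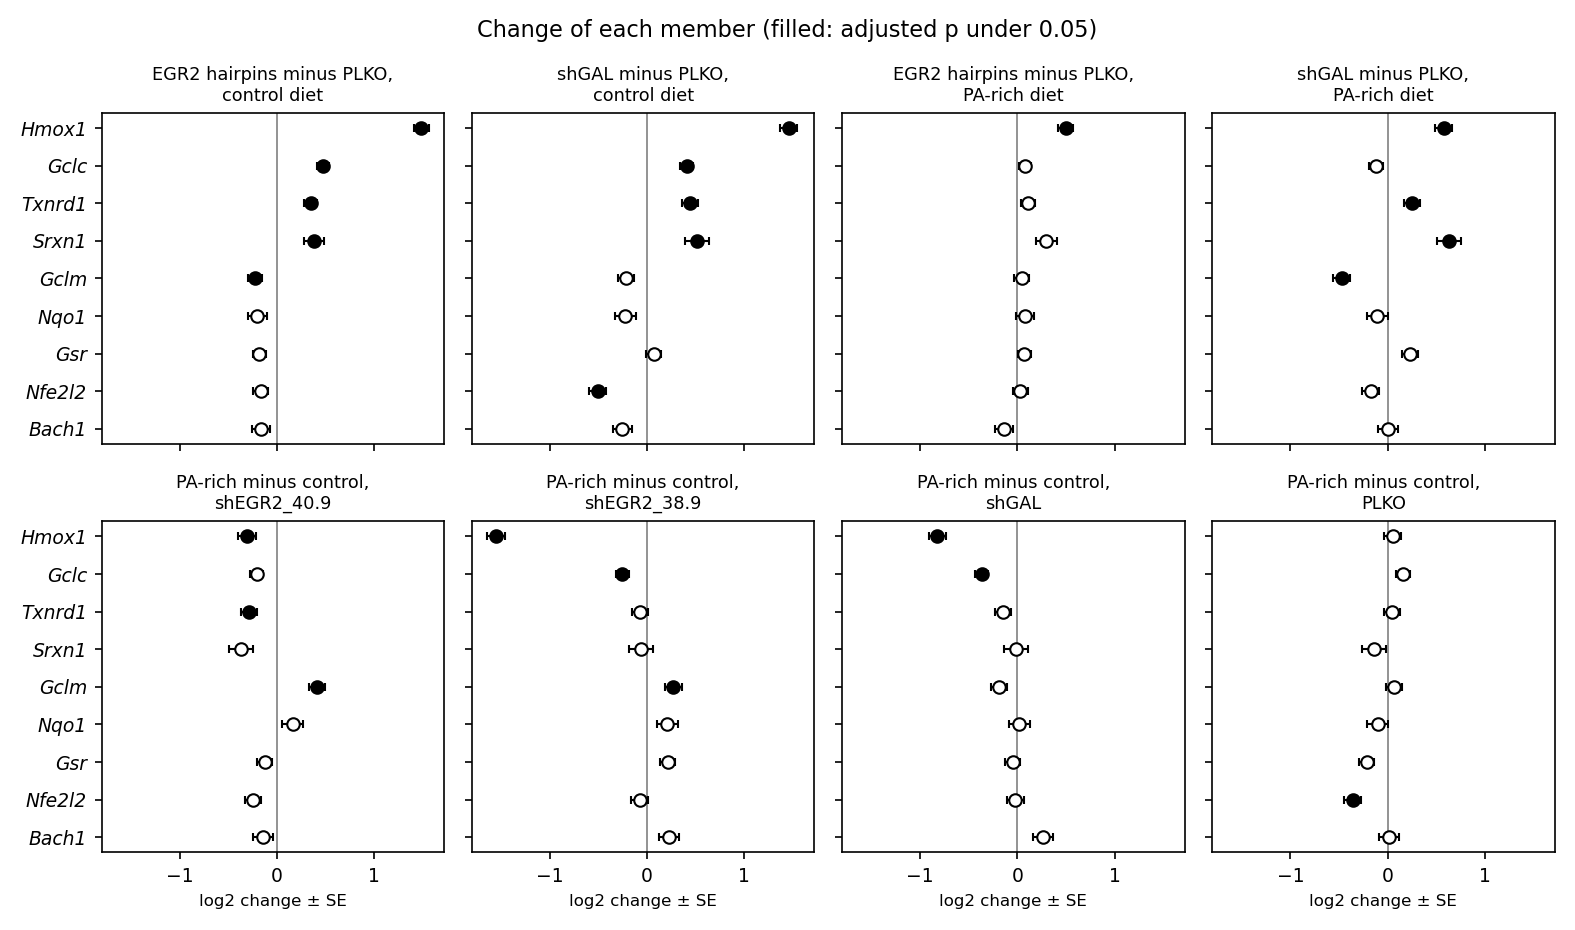
Log2 change ± SE of the 9 members tested in 8 comparisons, hairpin minus PLKO in the upper row and PA-rich minus control diet in the lower row; filled points have an adjusted p below 0.05. Hmox1 lies farthest right in both control diet panels (1.48 and 1.46) and farthest left with shEGR2_38.9 and shGAL on the diet contrast (-1.56 and -0.82).

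On the PA-rich diet fewer members differed from PLKO by the test. With the EGR2 hairpins Hmox1 was the 1 member called of 9, at 0.50 ± 0.08 (1.41-fold, adjusted p = 0.000998), with 1.11% of all genes called, and its arrays overlapped those of PLKO. The mean over both hairpins hid opposite changes: with shEGR2_40.9 alone Hmox1 was higher by 1.43 ± 0.09 (adjusted p = 1.15e-09, 4.02% of all genes called) and with shEGR2_38.9 alone it had a log2 change of -0.43 ± 0.09 (adjusted p = 0.0248, 0.625% of all genes called). With shEGR2_40.9 Srxn1 was also higher, by 0.54 ± 0.12 (adjusted p = 0.0128), so 2 of 9 members were called there. The lower Hmox1 with shEGR2_38.9 lost its call without PLKO PA-rich replicate 2 (-0.34, adjusted p = 0.149) or without shEGR2_38.9 PA-rich replicate 1 (0.0747) or 3 (0.177). The Srxn1 call with shEGR2_40.9 was lost without PLKO PA-rich replicate 1 (0.0849) or shEGR2_40.9 PA-rich replicate 3 (0.0676). Srxn1 over both hairpins, at 0.30 ± 0.11, was not called, and was called without the shEGR2_38.9 control array that stood apart, which enters that fit through the spread alone (adjusted p = 0.0348).

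With shGAL on the PA-rich diet Srxn1, Hmox1 and Txnrd1 rose and Gclm fell. Srxn1 read 9.36, 9.37 and 9.28 with shGAL, against 8.54, 8.80 and 8.76 with PLKO, a change of 0.64 ± 0.12 (adjusted p = 0.00120). Hmox1 was higher by 0.58 ± 0.09 (1.49-fold, adjusted p = 0.000102), and neither gene overlapped. Gclm read 9.84, 9.81 and 9.81 with shGAL, against 10.34, 10.31 and 10.23 with PLKO, a change of -0.47 ± 0.08 (adjusted p = 0.000531). All 3 shGAL arrays lay below the PLKO ones. Txnrd1 was higher by 0.25 ± 0.08 (adjusted p = 0.0453), a call lost in 16 of 31 alternatives, among them the scan batch as a block (adjusted p = 0.0741) and the replicate number as a block (0.0517). Without shGAL PA-rich replicate 1 or 3 its adjusted p was 0.163 or 0.148, and without PLKO PA-rich replicate 1, 2 or 3 it was 0.0996, 0.138 or 0.0849. It was 0.0529 to 0.0566 without PLKO control replicate 3, shGAL control replicate 1, shEGR2_40.9 control replicate 3 or PA-rich replicate 1, 2 or 3, or shEGR2_38.9 PA-rich replicate 1 or 3. Gclc, at -0.12 ± 0.07, was not called on this diet, and 4 of 9 members were, with 12.4% of all genes called. Gsr, at 0.23 ± 0.08, was called with the replicate number as a block (adjusted p = 0.0443).

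Between the diets, PA-rich against control, Hmox1 fell with 3 of the 4 hairpins. The change was -1.56 ± 0.09 with shEGR2_38.9 (2.94-fold lower, adjusted p = 1.99e-10), -0.82 ± 0.09 with shGAL (1.77-fold lower, adjusted p = 4.89e-05) and -0.31 ± 0.09 with shEGR2_40.9 (1.24-fold lower, adjusted p = 0.0297). With PLKO it was 0.05 ± 0.09 (adjusted p = 0.889), and its sign turned without PLKO PA-rich replicate 2 (-0.040). Within the 3 scan batches of each hairpin, each holding 1 array per diet, the change ran from -1.70 to -1.35 with shEGR2_38.9, from -0.89 to -0.78 with shGAL, from -0.40 to -0.22 with shEGR2_40.9 and from -0.07 to 0.17 with PLKO. The direction was the same in every batch with the first 3 hairpins and mixed with PLKO. The call with shEGR2_40.9 was lost without its control replicate 1, 2 or 3 or its PA-rich replicate 1 or 2 (adjusted p = 0.0647 to 0.126).

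Gclc accompanied Hmox1 in the diet contrast with shEGR2_38.9 and shGAL, and Txnrd1 with shEGR2_40.9. Gclc had a change of -0.25 ± 0.07 with shEGR2_38.9 (adjusted p = 0.00987) and of -0.37 ± 0.07 with shGAL (adjusted p = 0.00593), and it was not called with shEGR2_40.9 (-0.21 ± 0.07, adjusted p = 0.0609). Fitted on the arrays compared alone, which leaves fewer degrees of freedom, the Gclc calls were lost (adjusted p = 0.0781 and 0.111). With shEGR2_40.9 Txnrd1 read 11.54, 11.56 and 11.54 on the PA-rich diet, against 11.72, 11.95 and 11.84 on the control diet, a change of -0.29 ± 0.08 (adjusted p = 0.0262). The arrays did not overlap, and the call was lost without control replicate 2 (-0.24, adjusted p = 0.130) or 3 (0.0742) or any of PA-rich replicates 1 (0.0793), 2 (0.0677) and 3 (0.0804) of that hairpin. Srxn1 in the same contrast had a change of -0.38 ± 0.12 without overlap (adjusted p = 0.0612), called with the scan batch as a block (0.0497), as the mean of its 4 probe sets (-0.36, adjusted p = 0.00431) and without shEGR2_38.9 control replicate 1 (0.0323) or 3 (0.00495). Srxn1 and Txnrd1 were not called between the diets with shGAL, with PA-rich means of 9.34 against 9.35 and 11.61 against 11.75. With shEGR2_38.9 they were not called either, with means of 8.76 against 8.83 and 11.39 against 11.46. Without the array that stood apart, their changes with shEGR2_38.9 were -0.27 (adjusted p = 0.0520) and -0.18 (0.0883).

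Gclm went against Hmox1 in this contrast with both EGR2 hairpins. With shEGR2_40.9 it read 10.51, 10.42 and 10.45 on the PA-rich diet, against 9.98, 10.18 and 9.99 on the control diet. The arrays did not overlap, and the rise of 0.41 ± 0.08 (adjusted p = 0.00255) was called in every alternative run. With shEGR2_38.9 Gclm was higher by 0.27 ± 0.08 (adjusted p = 0.0243), a call that was lost without the array that stood apart (0.19, adjusted p = 0.126), without control replicate 2 (0.0636), without PA-rich replicate 1 (0.0945) or 2 (0.0683), after repeated quantile normalization (0.0568) and with only these 6 arrays fitted (0.163). With shGAL, where Hmox1 fell, Gclm did not go against it: its change was -0.19 ± 0.08, not called (adjusted p = 0.267), and ran from -0.30 to -0.13 within the 3 scan batches. Called members numbered 3 of 9 with shEGR2_40.9, where 8.95% of all genes were called, 3 of 9 with shEGR2_38.9, where 22.1% were, and 2 of 9 with shGAL, where 1.94% were. With a block the count changed: 5 were called with shEGR2_40.9 and the scan batch (Srxn1 and Nfe2l2 added, adjusted p = 0.0497 and 0.0491), and 5 with shEGR2_38.9 and the replicate block of hairpin and replicate number (Gsr and Bach1 added, 0.0260 and 0.0355).

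With PLKO 1 member of 9 differed between the diets, Nfe2l2, where 1.18% of all genes were called. Nfe2l2 read 9.23, 9.27 and 9.30 on the PA-rich diet, against 9.51, 9.65 and 9.72 on the control diet. Without overlap, the change was -0.36 ± 0.09 (1.28-fold lower, adjusted p = 0.0384). The call was lost in 13 of 32 alternatives, among them the replicate block (adjusted p = 0.0525), the mean of all probe sets of a gene (Nfe2l2 at -0.28, adjusted p = 0.210, with Gsr called in its place at -0.27, 0.0156) and the fits without PLKO control replicate 2 (0.128) or 3 (0.174) or without PLKO PA-rich replicate 1 (0.168), 2 (0.111) or 3 (0.0951). It was also lost, by a narrow margin, without PA-rich arrays of other hairpins: shEGR2_40.9 replicate 1 (0.0505), 2 (0.0525) or 3 (0.0521), shEGR2_38.9 replicate 1 (0.0508) and shGAL replicate 2 (0.0503).

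**Figure D3:**
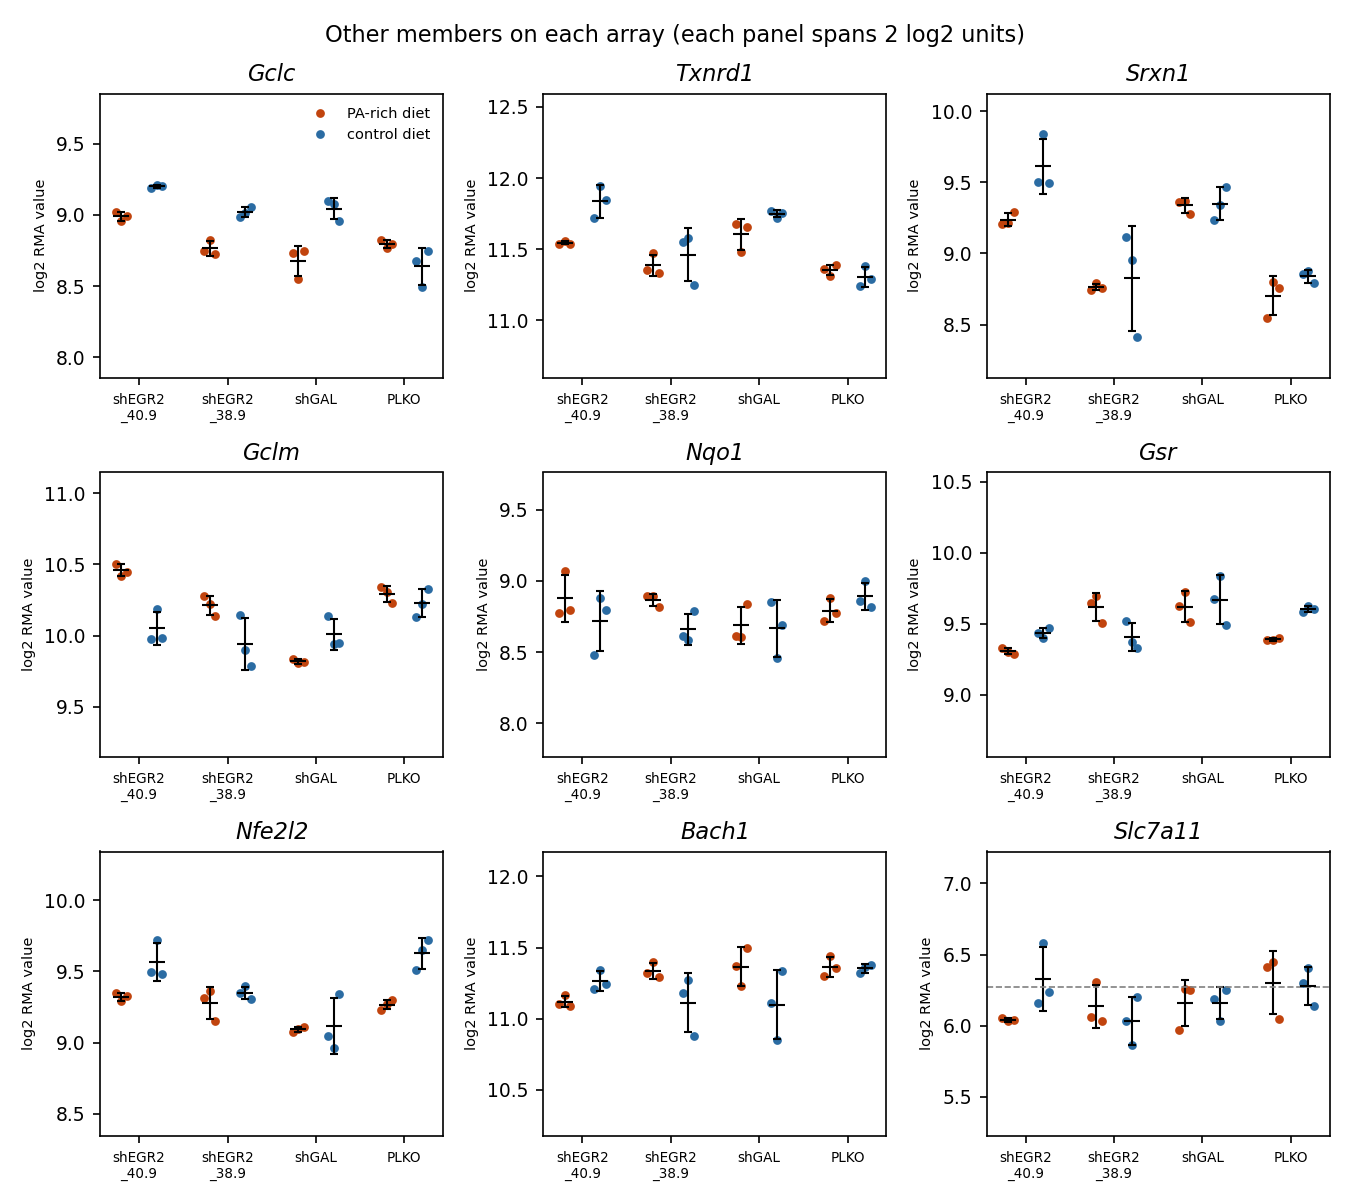
Log2 RMA level of the other 9 members on each array by hairpin, with the PA-rich diet left of the control diet; every panel spans 2 log2 units, bars give the mean ± SD of 3 arrays, and the dashed line for Slc7a11 is the dim level of 6.27. Srxn1 shows 1 low control array with shEGR2_38.9 (8.41), and Slc7a11 stays between 5.86 and 6.58 around the dim level.

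The difference of the diet effect between hairpins was tested directly. Between the EGR2 hairpins and PLKO it was -0.99 ± 0.11 for Hmox1 (adjusted p = 5.77e-06) and -0.39 ± 0.08 for Gclc (adjusted p = 0.00414), with 9.74% of all genes called. Between shGAL and PLKO it was -0.88 ± 0.13 for Hmox1 (adjusted p = 0.000814) and -0.53 ± 0.10 for Gclc (adjusted p = 0.00626), with 1.33% of all genes called. Hmox1 and Gclc were the 2 of 9 members called in each, and both had a lower diet effect than with PLKO. Without the array that stood apart, Txnrd1 was called too in the EGR2 comparison (-0.29, adjusted p = 0.0215), and with the replicate block of hairpin and replicate number Gsr was (0.26, adjusted p = 0.0483). These comparisons share the PLKO arrays.

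The EGR2 hairpins were unequal in this respect as well. With shEGR2_38.9 alone, the diet effect differed from that with PLKO by -1.61 ± 0.13 for Hmox1 (adjusted p = 3.77e-08), by -0.41 ± 0.10 for Gclc (adjusted p = 0.00637) and by 0.42 ± 0.11 for Gsr (adjusted p = 0.0128), with 13.4% of all genes called. Gsr, glutathione reductase, restores reduced glutathione, and it read 9.65, 9.70 and 9.51 with shEGR2_38.9 on the PA-rich diet, against 9.52, 9.37 and 9.33 on the control diet. These arrays overlapped narrowly. With shEGR2_40.9 alone Gclc alone was called, at -0.37 ± 0.10 (adjusted p = 0.0353, 4.16% of all genes called), and with the scan batch (0.0526) or the replicate block (0.0603) it was not; it was also lost without any of shEGR2_40.9 control replicates 1 to 3 (0.0601, 0.0561 and 0.0680), its PA-rich replicates 1 to 3 (0.0580, 0.0835 and 0.0735), PLKO control replicate 2 (-0.30, 0.0949) or PLKO PA-rich replicates 1 to 3 (0.0878, 0.0535 and 0.0642). Hmox1 there, at -0.36 ± 0.13, was not called (adjusted p = 0.113). A comparison added after the values were seen set the hairpins against each other: the diet effect with shEGR2_38.9 minus that with shEGR2_40.9 was -1.25 ± 0.13 for Hmox1 (adjusted p = 3.60e-06) and -0.04 ± 0.10 for Gclc (adjusted p = 0.860), with 5.57% of all genes and 1 of 9 members called. With the replicate block of hairpin and replicate number 3 were called, Gsr (0.34, adjusted p = 0.0399) and Bach1 (0.37, 0.0459) being added. On the PA-rich diet itself Hmox1 was lower by a log2 change of -1.86 ± 0.09 with shEGR2_38.9 than with shEGR2_40.9 (adjusted p = 4.59e-12), where 3 of 9 members and 5.01% of all genes were called. Srxn1, at -0.47, and Gsr, at 0.31, were the others, with adjusted p = 0.0248 and 0.0202. Srxn1 lost its call without any 1 of the 6 arrays compared (adjusted p from 0.0593 to 0.107). Gsr lost it when blocked on scan batch (0.0545) and without any of the 6 but shEGR2_38.9 PA-rich replicate 3 (0.0503 to 0.128). This comparison too was added after the values were seen.

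Nqo1, Gsr and Bach1 were called by limma in none of the 10 comparisons of the design, while at an unadjusted p below 0.05 Nqo1 passed in 2, Gsr in 5 and Bach1 in 3. Nqo1, a quinone reductase and a widely used Nrf2 target, had group means within 0.23 log2 units and changes from -0.22 to 0.28. Bach1, the repressor that haem removes, had group means within 0.27 log2 units. Bach1 was called with shGAL on the control diet without shGAL control replicate 3 (-0.37, adjusted p = 0.0148) or the array that stood apart (-0.25, 0.0415), between the diets with shGAL without shGAL control replicate 3 (0.38, 0.0392), and between the diets with shEGR2_38.9 without its control replicate 2 (0.31, 0.0468). Gsr was less settled. As the mean of its 2 probe sets it was called in 6 of the 10: for the EGR2 hairpins on the control diet (-0.28, adjusted p = 0.000238), for shGAL on the PA-rich diet (0.27, 0.00212), for the diet with shEGR2_38.9 (0.25, 0.00259) and, in the opposite direction, with PLKO (-0.27, 0.0156), and for the difference of the diet effect from PLKO with the EGR2 hairpins (0.35, 0.00215) and with shGAL (0.34, 0.0332). Its second probe set, 1421817_PM_at, was called in 4 of the 10 comparisons when all probe sets were tested, from -0.38 for the EGR2 hairpins against PLKO on the control diet (adjusted p = 0.00183) to 0.44 for the difference of the diet effect between the EGR2 hairpins and PLKO (adjusted p = 0.0207). Slc7a11, the cystine transporter that feeds glutathione synthesis, lay at or under the dim level and was left out of the test over genes. Its brighter probe set read 5.86 to 6.58 and its other probe set 5.03 to 5.64 over the 24 arrays.

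In all, Hmox1 was called in 9 of the 10 comparisons, Gclc in 6, Txnrd1 and Gclm in 4 each, Srxn1 in 3 and Nfe2l2 in 2. Over the 8 group means, a description with no test, Pearson's r with Hmox1 was 0.86 for Gclc, 0.83 for Txnrd1 and 0.78 for Srxn1. It was 0.01 for Nfe2l2, -0.21 for Gclm, -0.36 for Gsr, -0.53 for Nqo1 and -0.74 for Bach1. Without the groups farthest from the median Hmox1 level, shEGR2_38.9 on the PA-rich diet and PLKO on the control diet, r was 0.85 for Gclc, 0.76 for Txnrd1, 0.70 for Srxn1 and -0.68 for Bach1. It was then 0.47 for Nfe2l2, -0.02 for Gclm, -0.02 for Gsr and -0.09 for Nqo1, so the negative values of the last 3 over all groups rest on those 2. Both diets of a hairpin share their scan batches, and each further hairpin shares 1 batch with PLKO. Among 2954 genes outside the members whose group means spanned at least 0.5, the most alike were Rec114 (0.97), Pygm (0.95), Lax1 (0.94) and Pcf11 (0.94). None of these 4 belongs to a list of Nrf2 targets used here. The lowest group means of Lax1 (6.26) and Pygm (6.34) lie near the dim level.

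**Figure D4:**
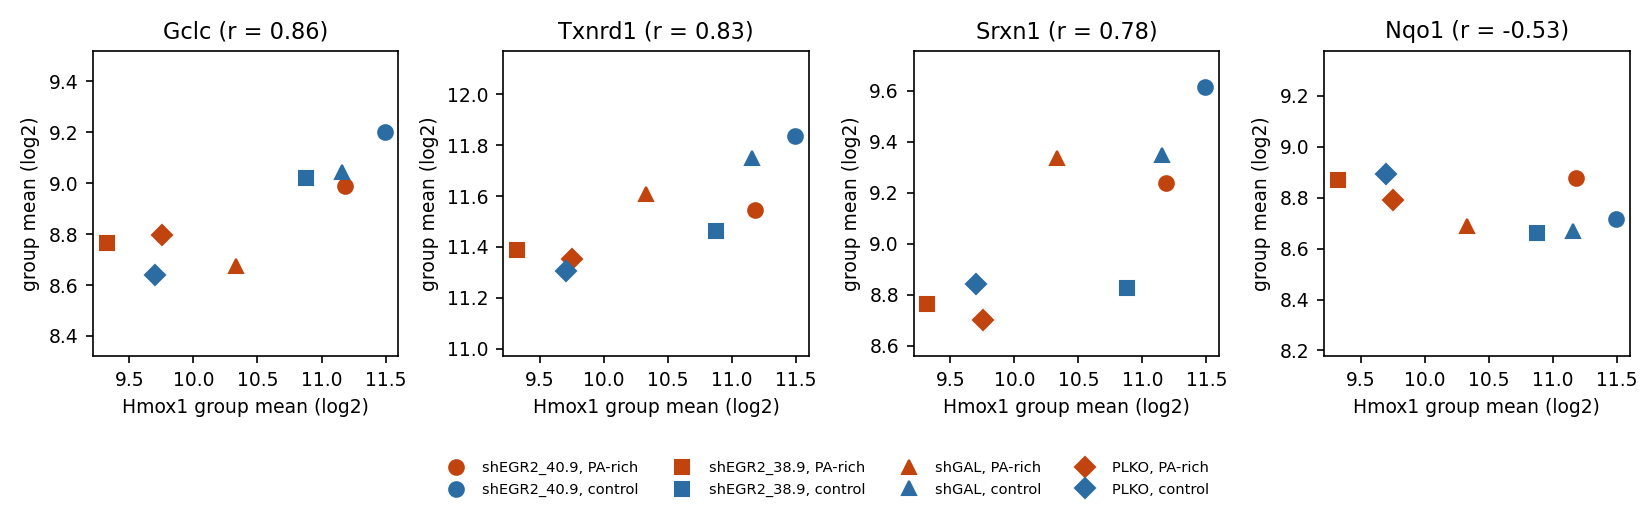
Group mean of Gclc, Txnrd1, Srxn1 and Nqo1 (vertical, log2) against that of Hmox1 (horizontal, log2) in the 8 groups; marker shape gives the hairpin, colour the diet, and each vertical axis spans the same range. Gclc, Txnrd1 and Srxn1 are higher where Hmox1 is higher (r = 0.86, 0.83 and 0.78), and Nqo1 is not (r = -0.53, and -0.09 without the 2 groups farthest from the median Hmox1 level).

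Beyond the members, the list of other known Nrf2 targets did not follow Hmox1 as a whole. Of 28 listed, 25 were kept. In the EGR2 hairpins against PLKO on the control diet 0 rose and 9 fell, where 10.8% of all genes rose and 14.5% fell, with a median change of -0.12, against -0.06 over all genes. The larger falls were those of Me1, malic enzyme, at -0.44 (adjusted p = 0.000105), Mgst1, a microsomal glutathione transferase, at -0.42 (adjusted p = 0.0264), and Gstp1, a cytosolic one, at -0.34 (adjusted p = 0.0378). Me1 had its highest group mean, 10.38, with shEGR2_40.9 on the control diet, where Hmox1 was highest too. The fall of Me1 in the mean of both hairpins thus came from shEGR2_38.9 alone. Cbr3, a carbonyl reductase, also had its highest group mean, 10.32, with shEGR2_40.9 on the control diet. In the diet contrast with shEGR2_38.9 12 rose and 0 fell, where 13.8% of all genes rose and 8.3% fell, with a median of 0.25, against 0.07 over all genes. Mgst1 was higher by 0.81 (adjusted p = 0.000490), Me1 by 0.77 (adjusted p = 4.07e-07) and the carbonyl reductase Cbr3 by 0.39 (adjusted p = 0.000728). Both directions were opposite to that of Hmox1 in the same comparison. With 1 hairpin alone on the control diet, 0 of the 25 were called by limma with shEGR2_40.9 (3 at an unadjusted p below 0.05) and 14 fell with shEGR2_38.9. Of all genes, 12.1% were called with shEGR2_40.9 and 30.4% with shEGR2_38.9. Without the array that stood apart 10 fell in the mean of the EGR2 hairpins and 11 with shEGR2_38.9 alone, and 6 rose in the diet contrast with shEGR2_38.9. Markers of keratinocytes, of which 14 were kept, moved alongside these targets: in the EGR2 comparison 0 rose and 4 fell, and in the shEGR2_38.9 diet contrast 6 rose and 0 fell. Without the array that stood apart 5 keratinocyte markers fell and 4 rose in these comparisons. Their part in the result was not tested.

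With shGAL against PLKO on the control diet, 1 of the 25 other targets rose, the pentose phosphate enzyme Pgd (0.37, adjusted p = 0.0231), and 3 fell, catalase (Cat, -0.43, adjusted p = 0.00571), Gstm2 (-0.39) and Gpx2 (-0.28). In the diet contrast with shGAL, 0 of the 25 were called by limma, and 0 at an unadjusted p below 0.05, where Hmox1 and Gclc fell. The 4 calls on the control diet stand beside 17% of all genes called there, with 7.15% of all genes higher, and the 0 between the diets beside 1.94%, so both are near the background.

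Of 11 Nrf2 partners and regulators 9 were kept. Mafk, a small Maf partner of Nrf2 and of Bach1, rose in both control diet comparisons, by 0.30 with the EGR2 hairpins (adjusted p = 6.34e-05) and by 0.31 with shGAL (adjusted p = 0.000575), and by 0.27 with shGAL on the PA-rich diet (adjusted p = 0.00236). Maff, another small Maf, rose by 0.34 with EGR2 hairpins under the control diet (adjusted p = 0.00132) and fell on the PA-rich diet with shEGR2_38.9 (-0.37, adjusted p = 0.00225). Bach2, a relative of Bach1, rose by 0.26 with the EGR2 hairpins and by 0.31 with shGAL on the control diet (adjusted p = 0.0334 and 0.0414). Trim21, a ubiquitin ligase that acts on the Nrf2 regulator p62, fell in both comparisons, at -0.44 and -0.41. Between the diets with shEGR2_40.9, Mafk (-0.22, adjusted p = 0.0124) and Bach2 (-0.54, 0.00114) fell. With shEGR2_38.9, Bach2 (-0.32, 0.0273) fell beside Maff, while Trim21 (0.46, 0.00267) and Nfe2l1, a relative of Nfe2l2 (0.44, 0.0145), rose. With PLKO and with shGAL, 0 of the 9 were called by limma, against 2 and 0 at an unadjusted p below 0.05. Only 1.18% and 1.94% of all genes were called there, so these zeros are near the background. The shares between the diets were 8.95% with shEGR2_40.9 and 22.1% with shEGR2_38.9. On the control diet they were 25.2% for the EGR2 hairpins and 17% for shGAL.

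Of 22 genes of haem and iron handling 17 were kept. In the EGR2 hairpins against PLKO on the control diet 1 rose and 3 fell (median -0.05, against -0.06 over all genes), and in the diet contrast with shEGR2_38.9 3 rose and 1 fell (median 0.11, against 0.07). With shGAL 1 rose and 1 fell on the control diet, and 0 rose and 1 fell between the diets. These shares of 17 lie near those of all genes called. Hmox2, the constitutive haem oxygenase, was called by limma in none of the 10 comparisons. Slc40a1, the iron exporter ferroportin, was called in the same direction as Hmox1 in 4 comparisons: 0.41 for the EGR2 hairpins on the control diet (adjusted p = 0.000676), -0.34 and -0.48 for the diet with shEGR2_40.9 and shEGR2_38.9 (adjusted p = 0.0219 and 0.000591) and -0.40 for the difference of the diet effect (adjusted p = 0.0270). It lay near the dim level of 6.27, with group means from 6.24 to 6.77. The highest was that of the shEGR2_38.9 control group, which holds the array that stood apart. With shGAL Slc40a1 was not called, while Flvcr1, a haem exporter, was higher against PLKO under the control diet (0.22, adjusted p = 0.0288) and fell in the diet contrast (-0.40, adjusted p = 0.00312). Aco1, whose protein senses iron, fell with the EGR2 hairpins (-0.61, adjusted p = 0.000100) and with shGAL (-0.47, adjusted p = 0.00673) on the control diet.

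Other stress genes were mixed. Of 15 genes of the Atf4 and amino acid response, 3 rose and 4 fell with EGR2 hairpins under the control diet: Chac1, which degrades glutathione, by 0.99 (adjusted p = 0.000492) and Nupr1, a stress-induced chromatin protein, by 0.96 (adjusted p = 2.75e-06), while the amino acid transporter Slc7a5 fell (-0.70, adjusted p = 4.29e-08). In the diet contrast with shEGR2_38.9, Chac1 (-1.30, adjusted p = 0.000129) and Nupr1 (-1.03, adjusted p = 7.14e-06) fell with Hmox1. With shGAL, neither was called on the control diet. Of 10 heat shock genes, Hsph1 and Bag3, a chaperone and a co-chaperone, rose in both control diet comparisons, by 0.31 and 0.26 with the EGR2 hairpins and by 0.29 and 0.30 with shGAL (adjusted p at most 0.0305). With the EGR2 hairpins Hspa1b, an inducible Hsp70 gene (-0.31, adjusted p = 8.60e-05), and Dnajb1, a co-chaperone (-0.16, 0.0344), fell, so 2 rose and 2 fell, while with shGAL 2 rose and 0 fell. Of all genes on the control diet, 25.2% were called with the EGR2 hairpins and 17% with shGAL. The heat shock count of 2 of 10 with shGAL is near that share.

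Vessel markers were called in the direction of Hmox1 in the EGR2 groups fed the control diet and between the diets. In the EGR2 hairpins against PLKO on the control diet, 14 of 15 endothelial markers rose, with a median change of 1.59, and 13 of 15 fell in the diet contrast with each EGR2 hairpin (median -1.05 with shEGR2_40.9 and -1.55 with shEGR2_38.9). Of all genes, 10.8% rose in the first comparison, and 5.22% and 8.3% fell between the diets with shEGR2_40.9 and shEGR2_38.9. The mean level of the list ran from 9.38 to 9.70 on shEGR2_40.9 control arrays and from 9.50 to 10.06 on shEGR2_38.9 control arrays, against 8.13 to 8.61 on PLKO control arrays. In shGAL against PLKO on the control diet, where Hmox1 rose by 1.46, 1 endothelial marker rose and 3 fell (median -0.19), and the mean level ran from 7.97 to 8.48, within or below the PLKO range. Of all genes, 7.15% rose and 9.84% fell in that comparison. In the diet contrast with shGAL, where Hmox1 fell, 1.94% of all genes were called. There 0 of 15 endothelial and 0 of 7 macrophage markers were called by limma, which is near that share. At an unadjusted p below 0.05 the counts were 1 and 0, and the median endothelial change was 0.02. In the EGR2 hairpins against PLKO on the PA-rich diet Hmox1 was called at 0.50, where 1.11% of all genes were called. There 0 of 15 endothelial and 0 of 7 macrophage markers were called by limma, against 5 and 2 at an unadjusted p below 0.05. That mean covers opposite Hmox1 changes of the hairpins. Against PLKO with 1 hairpin alone, Cd68 was higher with shEGR2_40.9 (0.46, adjusted p = 0.00576) and Mrc1 with shEGR2_38.9 (0.81, adjusted p = 0.0248). With shEGR2_38.9 alone on that diet, where the Hmox1 change was -0.43, the endothelial mean was 8.51, against 8.10 with PLKO. Hmox1 was lower with shEGR2_38.9 than with shEGR2_40.9 on both diets, while the endothelial mean was 9.85 with shEGR2_38.9 and 9.51 with shEGR2_40.9 on the control diet, and 8.51 with shEGR2_38.9 and 8.29 with shEGR2_40.9 on the PA-rich diet. Without the array that stood apart, 14 endothelial markers rose on the control diet and 14 fell in the diet contrast with each EGR2 hairpin.

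Of 17 macrophage markers 7 were kept, and Adgre1, Lyz2, Aif1, Itgam, C1qa and C1qb lay below the dim level. Mrc1, a receptor of tissue macrophages and of some endothelial cells, rose by 1.87 with EGR2 hairpins under the control diet (adjusted p = 5.08e-09), Cd68 by 0.55 and Cd14 by 0.53. The other 4, Csf1r, Msr1, C1qc and Fcgr1, had changes from -0.21 to -0.07 there and were not called. In the diet contrast Mrc1 fell with shEGR2_40.9 (-2.35), shEGR2_38.9 (-2.26) and PLKO (-0.70, adjusted p = 0.0341), and Cd14 fell with both EGR2 hairpins (-0.88 and -0.73). Cd68 fell with shEGR2_38.9 (-0.50, adjusted p = 0.000487) and was not called with shEGR2_40.9 (0.11). The difference between these Cd68 diet effects was called (-0.61, adjusted p = 0.00785). On the PA-rich diet Cd68 was lower with shEGR2_38.9 than with shEGR2_40.9 (-0.70, adjusted p = 6.90e-05), while Mrc1 was higher (1.10, adjusted p = 0.000205). With shGAL on the control diet Mrc1 (-0.59) and Cd14 (-0.35) fell and Cd68 rose (0.38, adjusted p = 0.00786). The mean level of the 7 markers ran from 7.18 to 7.50 on the EGR2 control arrays, from 6.84 to 6.94 on the shGAL control arrays and from 6.94 to 7.07 on the PLKO control arrays. Of 5 erythroid markers kept of 10, 1 rose with EGR2 hairpins under the control diet, Alas2 by 0.96 (adjusted p = 7.51e-06). With shGAL 0 were called by limma (2 at an unadjusted p below 0.05). Of all genes, 25.2% and 17% were called in these comparisons. Between the diets with shEGR2_40.9, where 8.95% of all genes were called, Alas2 (-1.03, 5.85e-05) and Hba-a1 (-0.27, 0.0153) fell. Slc4a1, Epb42 and Klf1 were not called there. With shEGR2_38.9, where Hmox1 fell most, Alas2 was not called (-0.18, 0.411).

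Markers of pericytes and smooth muscle, of which 7 of 9 were kept, moved as well. In the EGR2 hairpins against PLKO on the control diet 4 rose and 0 fell (median 0.62): Mylk by 2.19 (adjusted p = 3.03e-07) and Myh11 by 1.79 (adjusted p = 0.000149), both of the contractile apparatus, and Rgs5 and Acta2 by 0.62 each. In that comparison 10.8% of all genes rose and 14.5% fell. In the diet contrast with shEGR2_38.9 Myh11 (-2.83), Mylk (-2.81) and Acta2 (-0.52) fell, where 22.1% of all genes were called. With shEGR2_40.9, where 8.95% were called, 0 of the 7 were called by limma (1 at an unadjusted p below 0.05). The difference between these diet effects was itself called for Myh11 (-3.06, adjusted p = 0.000591), Mylk (-2.74, adjusted p = 6.81e-05) and Acta2 (-0.51, adjusted p = 0.0146), as it was for Hmox1. The mean level of the 7 was 7.58 with shEGR2_38.9 on the PA-rich diet, against 8.54 on the control diet, and 8.35 with shEGR2_40.9 on the PA-rich diet, against 8.41 on the control diet. With shGAL on the control diet Myh11 (-1.24) and Mylk (-1.09) fell where Hmox1 rose. Between the diets with shGAL, where 1.94% of all genes were called, 0 of the 7 were called by limma, and 0 at an unadjusted p below 0.05.

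Of 8 fibroblast markers 4 were kept. In the EGR2 hairpins against PLKO on the control diet the collagen gene Col1a1 (1.81, adjusted p = 0.0313) and Thy1 (0.92, adjusted p = 3.87e-09) rose and Dcn fell (-0.37, 0.00759). Between the diets Thy1 fell with shEGR2_40.9 (-0.50) and shEGR2_38.9 (-0.91), and Dcn fell with shEGR2_40.9 (-0.43) and rose with shEGR2_38.9 (0.44). With shGAL on the control diet Thy1 fell (-0.26, adjusted p = 0.0215). The part of these cell types in the Hmox1 changes of the EGR2 groups was not tested.

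**Figure D5:**
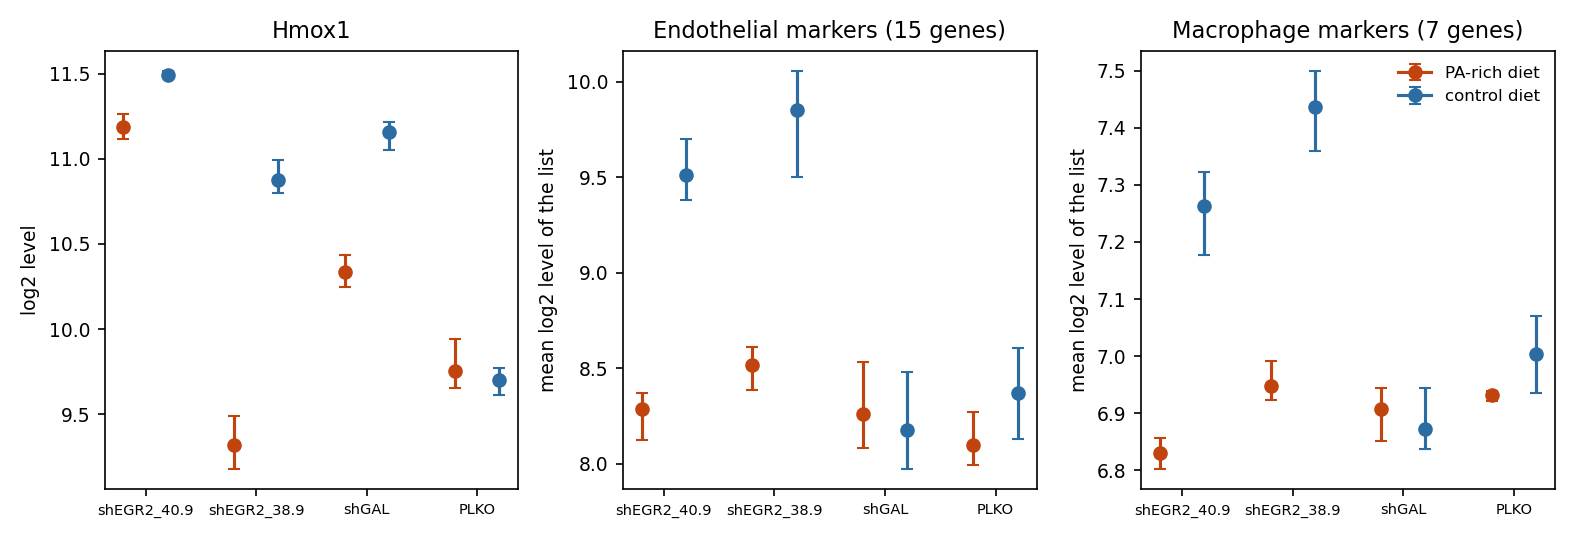
Hmox1 level, mean level of 15 endothelial markers and mean level of 7 macrophage markers (all log2) by hairpin, with the PA-rich diet left of the control diet; points are means of 3 arrays and bars run from the lowest to the highest array. Both marker lists are high in the EGR2 control groups alone, while Hmox1 is high in the shGAL control group too (11.05 to 11.22).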

How the data were processed

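Total RNA of the 24 samples was measured on Affymetrix HT MG-430 PM arrays. The authors deposited log2 values made with RMA, with affy as the tool, according to the submitters' processing notes; the versions are not given in the sources used here. Of 45141 probe sets the 28898 with 1 gene symbol were used, of which 99.3% matched RefSeq by Entrez identifier. The brightest probe set stood for a gene, and genes below the 40th percentile (6.27) were left out as dim, Slc7a11 among them. The arrays have no count depth, so their number limits the precision.

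Differences were fitted with limma 3.58.1 in R 4.3.3 as 8 group means over all 24 arrays, with two-sided moderated tests adjusted by Benjamini and Hochberg over 11844 genes, and the procedure was tested on simulated data. Scan batch, which within a hairpin goes with the replicate number, was a block in an alternative. Arrays of both diets with 1 number in a hairpin share a scan batch, which pairs them: their residuals correlated at 0.10 on average, with 7 of 12 pairs above 0.1, against -0.05 for other numbers, with 1 of 24 above 0.1. Blocked values stand beside the calls they change. Every member is named, and other genes are examples from the lists. The members, lists and comparisons were chosen with earlier results of these data known. The differences between the EGR2 hairpins, the second motif and the list counts without 1 array were added after the values were seen. The alternatives were blocks, filters, probe set choice, scaling, the arrays fitted and each array left out.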

Additional observations from a re-analysis of the deposited data

Results flagged for a closer look

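The diet effect of 3 members differed between hairpins by a test of the difference itself, in limma with adjustment over all genes. Between the EGR2 hairpins and PLKO it differed by -0.99 for Hmox1 (adjusted p = 5.77e-06) and by -0.39 for Gclc (adjusted p = 0.00414). Between shGAL and PLKO it differed by -0.88 for Hmox1 (adjusted p = 0.000814) and by -0.53 for Gclc (adjusted p = 0.00626). With shEGR2_38.9 alone against PLKO the difference was -1.61 for Hmox1 (adjusted p = 3.77e-08), -0.41 for Gclc (adjusted p = 0.00637) and 0.42 for Gsr (adjusted p = 0.0128). With shEGR2_40.9 alone it was -0.37 for Gclc (adjusted p = 0.0353), a call that 13 alternatives lost. Between shEGR2_38.9 and shEGR2_40.9 it was -1.25 for Hmox1 (adjusted p = 3.60e-06), in a comparison added after the values were seen. Groups of 3 arrays are too small for a test of single outlying arrays.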

How the results depend on the processing

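Of the 28 member changes called in the 10 comparisons, all kept their sign and 19 stayed called in every alternative run; uncalled changes were not all followed. With the replicate block of hairpin and replicate number, 0 members were called for the diet with PLKO, against 1 without it, and 5 with shEGR2_38.9, against 3; this block gives no value between hairpins. With the scan batch as a block 5 were called for the diet with shEGR2_40.9, against 3, and 5 also with the mean of all probe sets. With only the arrays compared in the fit, which leaves fewer degrees of freedom, the counts were 0 with PLKO, 1 with shEGR2_38.9 (against 3) and 1 with shGAL (against 2) for the diet, and 3 (against 5) and 2 (against 1) for the EGR2 hairpins on the control and PA-rich diets. Leaving out 1 array at a time gave 0 to 1 members called for the diet with PLKO, 1 to 5 with shEGR2_40.9 and 2 to 4 with shEGR2_38.9, and for the EGR2 hairpins 3 to 6 on the control diet and 1 to 2 on the PA-rich diet. The Hmox1 diet change then ran from -0.040 to 0.10 with PLKO, reversed without PLKO PA-rich replicate 2, and from -0.35 to -0.28 with shEGR2_40.9. No cause of these shifts was tested beyond the fewer degrees of freedom. The Hmox1 calls were kept in every fit with a block that gives a value, 3 for the diet effects and 2 between hairpins. Slc7a11 lies too near the dim level to be judged.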
